A study of Mus musculus with 23 samples.

Results

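The hearts described here came from wild-type (WT) mice that received JIB-04, a small-molecule blocker of histone demethylases of the Jumonji family, and were collected at postnatal day 77 (3 libraries) or day 45 (3 libraries). These 6 libraries, chosen by their titles, are part of a set of 23 mouse heart RNA-seq libraries. The comparison asks how gene expression in an otherwise untouched heart differed between these ages while the drug was given. All mice were C57BL/6. Both groups received JIB-04 at 50 mg/kg on 3 occasions per week, per the labels, and neither carried the calcineurin A transgene (CnATg) that enlarges the heart in other mice of the study. Treatment began at week 4 or week 5 of age in the study, and the week is not given for the WT mice under JIB-04. WT hearts with vehicle were analysed at day 45 (3 libraries) and not at day 77. Age, the length of treatment and any cohort of its own therefore cannot be told apart in the differences below. CnATg hearts under JIB-04 at day 77 (4 libraries, treatment from week 5) and day 45 (3 libraries, from week 4), in which an MHC promoter drives the transgene, per the labels, serve as a second comparison of the same ages.

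Between these ages a mouse heart completes its growth. Its fibroblasts, endothelial cells and muscle cells lay down collagens and basement membrane while the chambers enlarge, and make less of them once growth slows. Muscle cells meanwhile depend on fatty acids burned in mitochondria. Jumonji demethylases remove methyl groups from histone lysines with iron and oxoglutarate, and JIB-04 blocks several of them. This is background and not a result of these data.

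The values are FPKM (fragments scaled to transcript length and library size), computed back from deposited log2 values. Between 12502 and 12714 features per library reached 1 FPKM. Ppp3ca, the gene of the calcineurin A alpha subunit, lay at 23.6 to 28.6 FPKM in the 6 WT libraries and at 1475 to 1987 FPKM in the 7 CnATg libraries under JIB-04, so the genotype labels held. The heart labels held too: Myh6, the alpha myosin heavy chain of the adult mouse ventricle, was at 3031 to 3424 FPKM and Tnnt2, cardiac troponin T, at 3086 to 3595 FPKM. Read from Xist and Ddx3y, 2 of the 3 day-77 mice (replicates 1 and 2) and 1 of the 3 day-45 mice (replicate 3) were male. Replicate 3 of the day-45 vehicle group was male as well.

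Replicate 2 of day 45 stood apart. Its relative depth was 0.621 of the mean library, beside 0.831 to 0.922 in the other 5 WT libraries under JIB-04. Structural RNAs here were noncoding RNAs outside the mitochondrial genome such as small nuclear RNAs and those of the signal recognition particle, 7SK and RNase P. They made up 13.5% of the summed FPKM of replicate 2 of day 45 and 0.047 to 0.386% in the other 5. Rn7s1, an RNA of the signal recognition particle, was at 55108 FPKM there and at 146 to 1182 FPKM in the other 5. Hemoglobin transcripts separated the ages, with 1.054, 0.802 and 0.69% of the summed FPKM in day-77 replicates 1 to 3 and 0.326, 0.398 and 0.268% in the day-45 replicates. With 3 against 3 the two-sided exact permutation test gave p = 0.1, the smallest p possible. The mitochondrially encoded share was 25.45 ± 1.43% at day 77 and 23.3 ± 2.14% at day 45 (SD, n = 3 each; exact permutation p = 0.2), and the lowest value, 20.8%, was that of day-45 replicate 2. How much these library differences contributed to the gene differences below was not tested, and values without replicate 2 of day 45 stand beside the main counts.

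**Figure D1:**
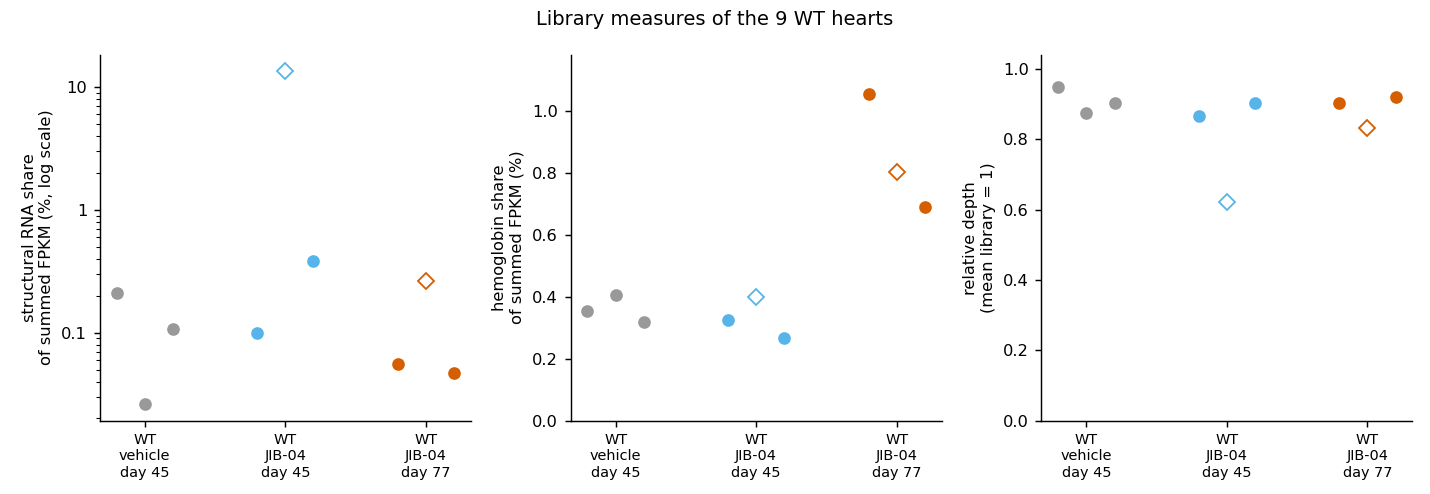
Structural RNA share (log axis, % of summed FPKM), hemoglobin share (%) and relative depth (mean of the 23 libraries = 1) of the 9 WT libraries, one point per library and open diamonds for replicate 2 of the JIB-04 groups. Day-45 replicate 2 is highest in structural RNA (13.5%) and lowest in depth (0.621), and the hemoglobin share is higher in every day-77 library (0.69 to 1.054%) than in every day-45 library (0.268 to 0.407%).

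Few genes passed the test. Of 12680 features tested, 49 (0.386%) differed between the ages at an adjusted p under 0.05 in limma's moderated test: 32 (0.252%) rose and 17 (0.134%) fell from day 45 to day 77. The 17 that fell include 6 genes of collagens, matrix and basement membrane, and 3 enzymes of glutathione use were among the genes that rose. In each of the 49 features the 3 libraries of one age lay wholly above the 3 of the other, which held for 17.7% of all features. Only 5 of the 49 changed at least 2-fold on the log2(FPKM + 1) scale, a scale that understates the change of low genes. Fold values given below are on this scale and are not ratios of the FPKM values beside them. The median difference of all features was 0.03 (log2), with 57.5% above 0 and 42.4% below 0.

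These calls depend on the spread lent by all 23 libraries and on single libraries. With only the 6 libraries in the fit, limma called 0 features and 1403 had an unadjusted p under 0.05, against 2004 (15.8%) in the fit of all libraries. Without day-45 replicate 2, 5 features rose and 2 fell; without day-77 replicate 2 limma called 0, with 1423 at an unadjusted p under 0.05; without day-45 replicate 1, 9 rose and 1 fell, and without day-45 replicate 3, 4 rose and 1 fell. Without day-77 replicate 3, 28 rose and 33 fell (45.9% higher). Median-ratio scaling turned the balance, with 13 higher and 27 lower calls (32.5% higher, against 65.3% here). Calls were 48% higher with quantile normalization, 85.7% without mitochondrial and hemoglobin genes, and 28.6% when structural RNA was left out as well.

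**Figure D2:**
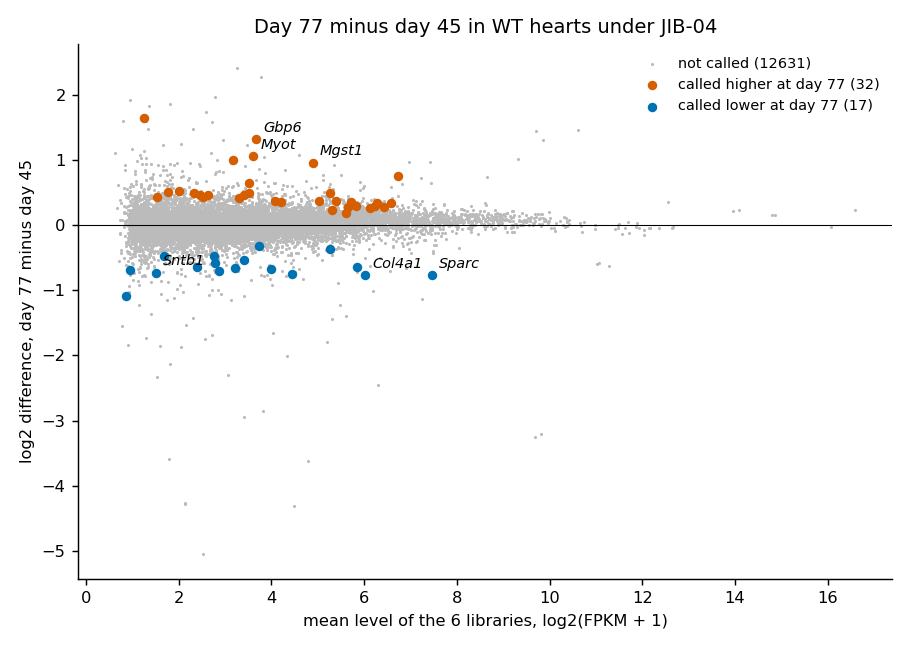
Log2 difference (day 77 minus day 45, vertical) against the mean level of the 6 libraries (horizontal, log2(FPKM + 1)) for the 12680 features tested, with calls at an adjusted p under 0.05 in colour. The 32 higher and 17 lower calls lie close to the cloud of all features, and 1 feature that was not called, the structural RNA Rnu2-10, has the lowest value, -5.06 (adjusted p = 0.0721).

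Several extracellular matrix genes fell. Of 40 collagen and matrix genes, 37 were tested, and 5 fell while 0 rose, beside 0.134% and 0.252% of all features. The 5 were Sparc, Col4a1, Col4a2, Col6a1 and Col5a1. Of the 37, 31 had values below 0, and the median difference was -0.42 (log2) beside 0.03 over all features. In 18 of the 37 the day-77 libraries lay wholly below the day-45 libraries, and in 0 wholly above (5.63% and 12% of all features).

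Sparc (chromosome 11, 55394500 to 55420080), a collagen-binding protein of growing and healing tissue, was at 153, 108 and 146 FPKM in day-77 replicates 1 to 3. The day-45 replicates were at 232, 234 and 223 FPKM. The day-77 libraries all lay below, a condition for naming a gene here, and day-77 replicate 2 was the lowest. The fall was 1.71-fold (log2 difference -0.77, SE 0.16, adjusted p = 0.0376). The day-45 vehicle libraries were at 246, 241 and 233 FPKM, also above every day-77 library.

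Col4a1 and Col4a2 encode chains of type IV collagen, the network of basement membranes. They lie head to head on chromosome 8 (Col4a1 11198423 to 11312826 on the minus strand, Col4a2 11312805 to 11449287 on the plus strand), and the gene models share 22 bases. Antisense gene models also overlap them, Gm15418 over 6081 bases of Col4a1 and Gm15419 over 18707 bases of Col4a2. Reads from overlapping strands cannot be told apart in these non-directional libraries. Because the genes moved together, the RefSeq promoter windows (GRCm38.p6, 250 bases before to 50 after the start) are shown, 5′ to 3′ on each gene's own strand, with the 78 bases that both windows hold, each as the reverse complement of the other, in capitals. The windows are chr8:11312777-11313076 (minus) for Col4a1 and chr8:11312555-11312854 (plus) for Col4a2.
Col4a1: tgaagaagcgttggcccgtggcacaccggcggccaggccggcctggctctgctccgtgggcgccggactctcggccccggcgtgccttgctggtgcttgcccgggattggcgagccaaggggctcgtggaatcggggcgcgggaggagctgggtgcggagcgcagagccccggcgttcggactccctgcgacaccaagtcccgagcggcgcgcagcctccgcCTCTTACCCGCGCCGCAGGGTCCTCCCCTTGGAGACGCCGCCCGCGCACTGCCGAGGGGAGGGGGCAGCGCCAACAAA
Col4a2: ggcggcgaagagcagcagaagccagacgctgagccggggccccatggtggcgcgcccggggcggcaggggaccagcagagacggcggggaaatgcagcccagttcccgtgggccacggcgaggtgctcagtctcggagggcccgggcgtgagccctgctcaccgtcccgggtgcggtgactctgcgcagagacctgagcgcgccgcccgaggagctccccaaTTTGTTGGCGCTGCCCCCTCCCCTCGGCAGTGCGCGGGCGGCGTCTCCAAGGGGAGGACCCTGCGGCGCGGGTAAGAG
The starts are 21 bases apart. The motif CCAAT (or ATTGG on the other strand) occurred once in each window, and 37.4% of the 32851 RefSeq windows of this length hold it. GGGCGG (or CCGCCC) occurred 1 time in the Col4a1 and 3 times in the Col4a2 window (35.7% of all windows hold it), and TATAAA (or TTTATA) in neither (13.6% of all). These are matches of letters only.

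Col4a1 was at 61.9, 37.9 and 49.2 FPKM at day 77 and at 77.2, 87.9 and 85.9 FPKM at day 45 (1.70-fold lower; log2 difference -0.77, SE 0.15, adjusted p = 0.0356). Col4a2 was at 55.9, 36.0 and 45.0 FPKM at day 77 and at 66.1, 72.8 and 74.0 FPKM at day 45 (1.57-fold lower; log2 difference -0.65, SE 0.12, adjusted p = 0.0315). Both genes had the same order at day 77, with replicate 2 lowest and replicate 1 highest. Neither overlapped between the ages, a condition for naming a gene here. In the day-45 vehicle libraries Col4a1 was at 85.0 to 107.9 FPKM and Col4a2 at 72.5 to 85.1 FPKM.

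Fibril and beaded-filament collagens followed. Col6a1 (chromosome 10, 76708792 to 76726168), a chain of the type VI collagen that surrounds muscle cells, was at 18.5, 11.7 and 18.1 FPKM at day 77 and at 27.8, 27.6 and 26.1 FPKM at day 45 (1.68-fold lower; log2 difference -0.75, SE 0.16, adjusted p = 0.0498). Col5a1 (chromosome 2, 27886425 to 28039514), whose type V collagen starts fibrils, was at 5.86, 3.69 and 4.91 FPKM at day 77 and at 8.49, 8.29 and 8.27 FPKM at day 45 (1.63-fold lower; log2 difference -0.70, SE 0.15, adjusted p = 0.0408). Day-77 replicate 2 was again the lowest for both, and the 3 day-45 libraries differed little among themselves.

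The main fibril collagens did not pass the test. Col3a1 (type III collagen) had the largest difference in the list, -1.22 (log2; 95% interval -1.79 to -0.66, adjusted p = 0.0511), with 33.3, 18.6 and 35.9 FPKM at day 77 and 66.0, 78.8 and 58.2 FPKM at day 45. Col1a1 and Col1a2, the chains of type I collagen, had differences of -0.67 and -0.54 (adjusted p = 0.169 and 0.129). Col6a2, the partner chain of Col6a1, had -0.78 (adjusted p = 0.0568), Fbn1 (fibrillin 1 of microfibrils) -0.83 (0.0773) and Loxl2, a collagen cross-linking oxidase, -0.90 (0.0568). None of these 6 overlapped between the ages.

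Other matrix genes had values near 0. Dcn (decorin) was at 204 to 217 FPKM at day 77 and at 189.7 to 210.3 FPKM at day 45, Mgp (matrix Gla protein) differed by 0.00 and Fn1 (fibronectin) by -0.02 on the log2 scale. Timp3, an inhibitor of matrix proteases, had the highest value of the list, 0.22, with an adjusted p of 0.572. The growth factors Tgfb1, Tgfb2 and Tgfb3, which drive collagen synthesis, had 0.12, -0.01 and -0.10.

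The lower matrix level was most marked in one library. The summed FPKM of the list was 1290, 1151 and 1366 in day-77 replicates 1 to 3 and 1668, 1639 and 1422 in the day-45 replicates, with 1682, 1655 and 1481 in the day-45 vehicle replicates. Day-77 replicate 2 was the lowest of the 6 in 26 of the 37 genes. In each WT group the male libraries had lower sums than the female ones. The males were day-77 replicates 1 and 2 and replicate 3 of both day-45 groups, so the ages differ in sex. Leaving out any 1 of the 6 libraries kept the list's median between -0.49 and -0.31. Sex as a covariate brought it to -0.28, with 27 of the 37 below 0. Without day-77 replicate 2, or without any 1 of the day-45 libraries, 0 members were called by limma, whereas 6 were without day-77 replicate 1 and 5 without day-77 replicate 3. At an unadjusted p under 0.05, 18 of the 37 were lower and 0 higher in the fit of all libraries, beside 4.95% and 10.9% of all features.

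No marker of the cells that make matrix passed the test. Of 11 fibroblast markers 10 were tested, 0 were called, 7 had values below 0 (-0.76 at the lowest) and the median was -0.12. At an unadjusted p under 0.05, 2 were lower and 0 higher, beside 4.95% and 10.9% of all features. Day-77 replicate 2, the lowest library in most matrix genes, was also the lowest of the 6 in 7 of the 10, and how far the matrix values moved with these markers was not tested. Leaving out 1 of the 6 libraries gave a median between -0.25 and 0.03. With sex as a covariate the median was -0.02 and 5 of the 10 were below 0. Their summed level was 848, 777 and 924.5 FPKM at day 77 and 949.8, 910.2 and 759 FPKM at day 45, with overlap. In the day-45 vehicle libraries it was 884.4, 869.5 and 769.4 FPKM. Every male WT library (day-77 replicates 1 and 2, replicate 3 of both day-45 groups) lay below every female one. One of the 3 with values above 0 was Pdgfra, the receptor that marks heart fibroblasts, at 6.35, 5.18 and 6.65 FPKM at day 77 and at 6.09, 6.16 and 5.69 FPKM at day 45. Endothelial markers (12 tested) had a median of 0.03 and smooth muscle and pericyte markers (8 tested) -0.07, with 0 called in either list. In a bulk sample, fewer cells of a type and less RNA per cell cannot be told apart.

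**Figure D3:**
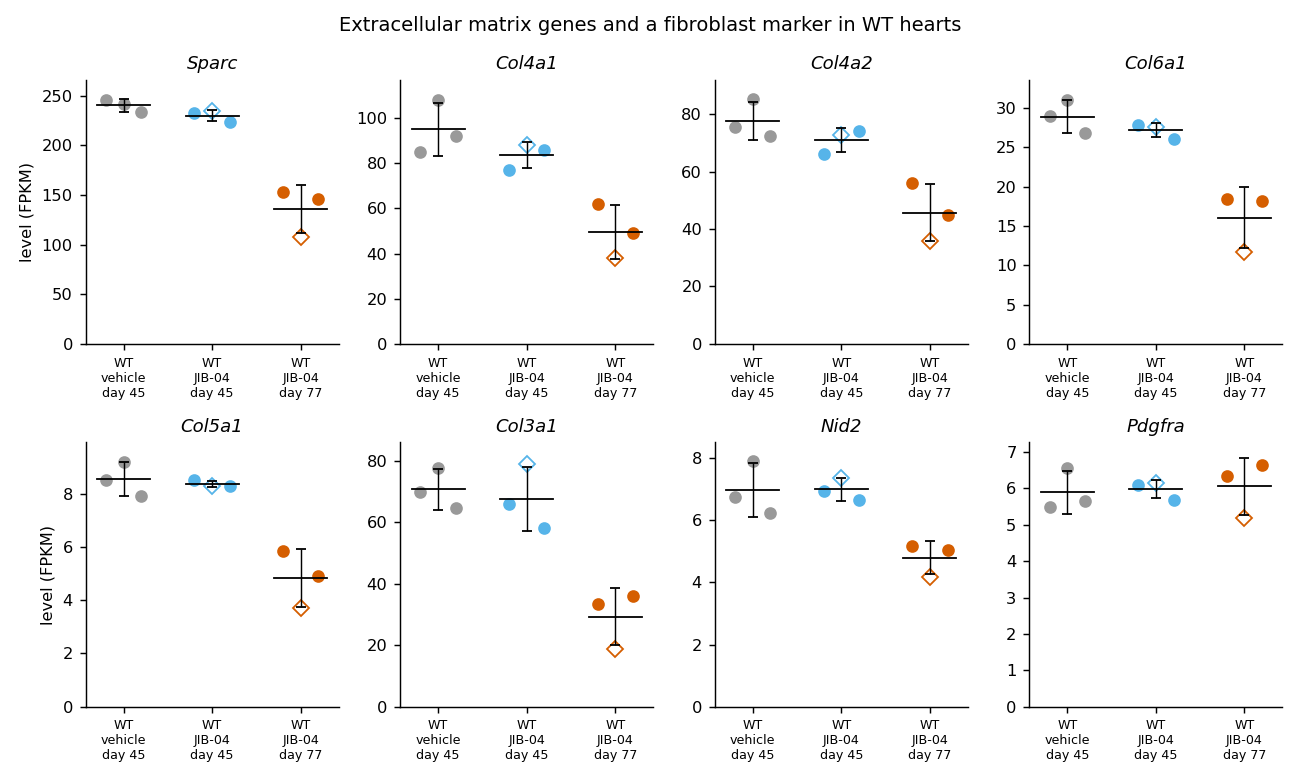
Levels (FPKM, linear axes from 0) of 7 matrix genes and the fibroblast marker Pdgfra in WT hearts with vehicle at day 45, JIB-04 at day 45 and JIB-04 at day 77, one point per library, line and bar for mean ± SD (n = 3), open diamonds for replicate 2 of the JIB-04 groups. In the matrix genes every day-77 point lies below every day-45 point. For Sparc, Col4a1, Col4a2, Col5a1 and Col6a1, non-overlap under JIB-04 was a condition for naming them. Pdgfra overlaps (5.18 to 6.65 against 5.69 to 6.16 FPKM under JIB-04). It is among the 3 fibroblast markers with values above 0, and 7 of the 10 tested had values below 0.

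A wider basement membrane list, chosen after values had been seen, shares Col4a1 and Col4a2 with the matrix list. Of its 18 tested genes these and Nid2 fell, 0 rose (0.134% and 0.252% of all features), and 16 had values below 0 (42.4% of all features), with a median of -0.24. Nid2 (nidogen 2, which links laminin to type IV collagen) was at 5.16, 4.18 and 5.04 FPKM at day 77 and at 6.96, 7.37 and 6.65 FPKM at day 45 (log2 difference -0.47, adjusted p = 0.0364). Its partner Nid1 had -0.31 (adjusted p = 0.0874). Lama5, the laminin alpha 5 chain of mature vessels, went the other way without passing the test: 27.4, 28.4 and 22.4 FPKM at day 77 and 17.6, 17.9 and 15.1 FPKM at day 45 (log2 difference 0.60, adjusted p = 0.0758). Its day-45 vehicle libraries, at 18.8, 25.0 and 22.5 FPKM, overlapped the day-77 level.

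Other secreted proteins fell as well. C1qtnf6, a secreted protein of the C1q and tumour necrosis factor family, was at 3.68, 2.95 and 3.05 FPKM at day 77 and at 5.57, 4.95 and 6.36 FPKM at day 45 (log2 difference -0.65, SE 0.11, adjusted p = 0.0204). Its day-45 vehicle libraries lay higher still, at 6.88 to 7.35 FPKM. Aspn (asporin, a small proteoglycan of collagen fibrils) was at 7.94, 6.72 and 8.82 FPKM at day 77 and at 11.9, 12.6 and 10.8 FPKM at day 45 (-0.54, adjusted p = 0.0356). The gene overlaps Cenpp on the other strand. Ssc5d, a soluble scavenger receptor, was at 1.74, 1.46 and 1.95 FPKM and at 3.17, 2.60 and 2.59 FPKM (-0.48, adjusted p = 0.037). None of the 3 overlapped between the ages, which was a condition for naming a gene here.

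The other named genes that fell act inside cells. Sntb1 (beta-1 syntrophin, an adaptor of the dystrophin complex) had 1.28, 1.15 and 1.24 FPKM at day 77 and 2.59, 2.77 and 2.696 FPKM at day 45 (log2 difference -0.73, SE 0.12, adjusted p = 0.0204). The 3 day-77 libraries were alike and far below the day-45 libraries. Tppp, a tubulin-binding protein, had 6.57, 6.47 and 6.37 FPKM and 11.4, 9.88 and 10.98 FPKM (-0.65, adjusted p = 0.0204), equally even at day 77. Nrep (neuronal regeneration related protein) had 12.7, 8.47 and 14.7 FPKM and 19.9, 18.8 and 18.9 FPKM (-0.67, adjusted p = 0.0364). Dact3, an antagonist of Wnt signalling, had 5.17, 4.24 and 4.70 FPKM and 8.46, 7.82 and 6.29 FPKM (-0.57, adjusted p = 0.0369).

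Besides Nid2, 4 more features that fell lay outside the rule for named genes and were picked out after their values were seen. Cdk4, the cyclin-dependent kinase of the G1 phase, was at 32.9, 31.7 and 34.7 FPKM at day 77 and at 43.1, 41.8 and 44.1 FPKM at day 45 (-0.37, adjusted p = 0.0408). Sec24d, a coat protein of vesicles that carry collagen out of the endoplasmic reticulum, was at 10.5 to 11.7 FPKM and 13.2 to 15.0 FPKM (-0.32, adjusted p = 0.0422). Plekhh1 and the gene model Gm17084, which overlaps Ripk1, averaged 1.51 and 1.68 FPKM at day 45. Nid2, Cdk4, Plekhh1, Ssc5d, Col5a1, Tppp, Clk4, Cln6, Tmem144, Crbn, Rnf114, Golga4, Luc7l2, Sf3b2 and Surf1 each overlap another gene or gene model on the opposite strand, whose reads cannot be told apart in non-directional libraries. Of 16 tested cell cycle genes 0 were called and 12 had values below 0, with a median of -0.17 (-0.23 to -0.08 with 1 of the 6 libraries left out). Cdk1, the kinase of mitosis, was at 0.661, 0.0651 and 1.87 FPKM at day 77 and at 2.13, 1.99 and 1.17 FPKM at day 45, with overlap.

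Gbp6, an interferon-inducible GTPase of the guanylate-binding family, had the largest difference of the genes named here that rose. It was at 11.8, 26.6 and 22.0 FPKM at day 77 and at 7.06, 8.11 and 6.04 FPKM at day 45 (2.50-fold higher; log2 difference 1.32, SE 0.22, adjusted p = 0.0204). Replicate 1 was nearest to the day-45 libraries and still above them, as the condition for naming a gene requires. Of 7 tested genes of the family, a list chosen after values had been seen, Gbp6 alone was called, and Gbp2, Gbp3, Gbp4, Gbp5, Gbp7 and Gbp9 had differences of 0.04, -0.32, -0.01, -0.08, -0.09 and -0.11. The locus overlaps Gbp10 and the gene model Gm43302 on the same strand, so the share of reads that belongs to each near copy is uncertain. Of 24 tested interferon-response genes 0 were called and 21 had values below 0 (median -0.21). Without day-45 replicate 2, 16 were below 0 and the median was -0.08. Of 15 antigen-presentation genes 0 were called and 13 had values above 0 (median 0.29, and 0.05 to 0.42 with 1 of the 6 libraries left out).

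Myot (myotilin, a protein of the sarcomere's Z-disc) was at 15.4, 22.98 and 13.0 FPKM at day 77 and at 6.65, 6.43 and 9.70 FPKM at day 45 (2.08-fold higher; log2 difference 1.06, SE 0.21, adjusted p = 0.0364). Day-45 replicate 3, the highest of its group, was the male. With sex as a covariate in limma the Myot difference was 0.925 (adjusted p = 0.00693). Of 18 tested genes in the sarcomere list 0 were called, and their median was 0.02, beside 0.03 over all features. In 3 of the 18 the day-77 libraries lay wholly above the day-45 libraries, and in 0 wholly below (12% and 5.63% of all features). Without day-45 replicate 2 the median was 0.09 and 4 of the 18 were below 0. Myh7, the beta myosin heavy chain that marks the stressed adult mouse heart, was at 99.2, 90.1 and 96.5 FPKM at day 77 and at 107.0, 85.5 and 85.7 FPKM at day 45, with overlap. Of 9 tested fetal and stress genes 0 were called (median 0.05).

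Among the genes that rose were 3 enzymes that use glutathione, the main thiol antioxidant of cells. Mgst1 (microsomal glutathione S-transferase 1) was at 38.9, 45.1 and 37.7 FPKM at day 77 and at 17.6, 15.8 and 29.9 FPKM at day 45 (1.95-fold higher; log2 difference 0.96, SE 0.21, adjusted p = 0.0454). Day-45 replicate 3, the male of its group, lay between the other day-45 libraries and the day-77 group. With sex as a covariate in limma the Mgst1 difference was 0.86 (adjusted p = 0.0362). Gstk1, a transferase of mitochondria and peroxisomes, was at 83.3, 89.2 and 86.4 FPKM and at 64.1, 70.8 and 69.9 FPKM (0.33, SE 0.06, adjusted p = 0.0204). Gpx3, the secreted glutathione peroxidase, was at 91.3, 101.3 and 89.1 FPKM and at 77.8, 74.2 and 79.7 FPKM (0.28, adjusted p = 0.0408). In a list of 26 such enzymes chosen after values had been seen, 25 were tested, these 3 rose and 0 fell, beside 0.252% and 0.134% of all features. The other 22 did not pass, and 23 of the 25 had values above 0 (median 0.16, lowest -0.38), beside 57.5% and a median of 0.03 over all features. Among 16 tested targets of the antioxidant regulator NRF2, 0 were called and all 16 had values above 0 (median 0.18; 1 was below 0 with median-ratio scaling), while its best known targets Nqo1, Gclc, Gclm and Txnrd1 differed by 0.16, 0.09, 0.06 and 0.02.

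**Figure D4:**
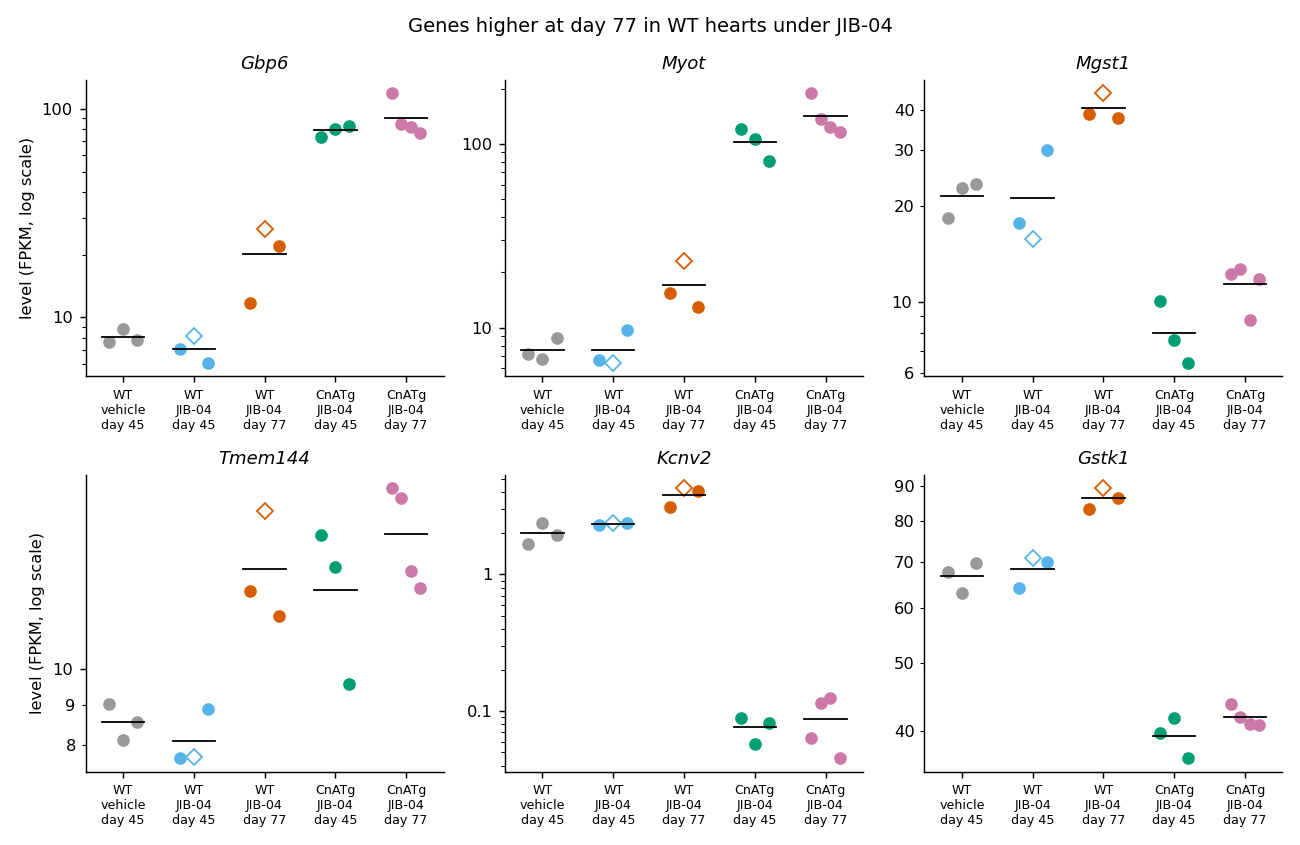
Levels (FPKM, log axes) of 6 genes that rose in WT hearts under JIB-04, in WT hearts with vehicle at day 45 and in WT and CnATg hearts under JIB-04 at both ages, one point per library with a line at the group mean (n = 3, and 4 for CnATg day 77), open diamonds for replicate 2 of the WT JIB-04 groups. In each panel every WT day-77 point lies above every WT day-45 point under JIB-04. None of the 49 called features overlapped between the ages, and non-overlap was a condition of the rule for named genes. Gbp6 and Myot are higher in every CnATg library (at least 73.3 and 80.8 FPKM) than in any WT library.

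Kcnv2, a silent subunit of voltage-gated potassium channels, was at 3.11, 4.26 and 4.08 FPKM at day 77 and at 2.28, 2.38 and 2.37 FPKM at day 45 (0.52, adjusted p = 0.0364). Its level in CnATg hearts under JIB-04 was 0.0454 to 0.126 FPKM at either age, and the fit of all libraries includes these near-0 values. The Kcnv2 call depended on the amount added to FPKM. With log2(FPKM + 0.1) or log2(FPKM + 0.5) limma did not call it (adjusted p = 0.352 and 0.0648). Clk4, a kinase of splicing factors, was at 40.0, 49.6 and 44.2 FPKM and at 35.7, 29.3 and 29.2 FPKM (0.49, adjusted p = 0.0369). Heat-shock genes (12 tested) had a median of 0.04, with 0 called.

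The other named genes that rose were 1.38- to 1.57-fold higher on the log2(FPKM + 1) scale. Tmem144, a membrane protein, had 11.7 to 15.9 FPKM at day 77 and 7.69 to 8.88 FPKM at day 45 (0.65, adjusted p = 0.037). Mks1, a protein of the base of cilia, had 2.79 to 3.25 FPKM and 1.79 to 1.92 FPKM (0.51, adjusted p = 0.0364). Art4, a cell surface protein that carries a blood group antigen, had 11.8 to 13.3 FPKM and 8.03 to 9.76 FPKM (0.50, adjusted p = 0.0484). Cln6, a protein of the endoplasmic reticulum, had 10.6 to 12.5 FPKM and 7.49 to 8.82 FPKM (0.47, adjusted p = 0.0408). Zfp97, a zinc finger gene with close relatives among which reads may be split, had 5.99 to 6.79 FPKM and 3.94 to 4.62 FPKM (0.47, adjusted p = 0.0376).

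Further genes that rose include several mitochondrial proteins, named here after their values were seen. Surf1, an assembly factor of cytochrome c oxidase, had 32.8 to 38.2 FPKM at day 77 and 25.8 to 28.9 FPKM at day 45 (0.38, adjusted p = 0.0352). Bckdk, the kinase that shuts down the oxidation of branched-chain amino acids, had 55.9 to 62.8 FPKM and 44.9 to 47.8 FPKM (0.35, adjusted p = 0.0364), and Abcb8, a transporter of the inner membrane, 41.5 to 42.6 FPKM and 34.9 to 35.9 FPKM (0.23, adjusted p = 0.0408). The splicing proteins Ctnnbl1, Luc7l2 and Sf3b2 rose by 0.46, 0.29 and 0.19 on the log2 scale. Crbn and Rnf114, both of ubiquitin ligases, rose by 0.38 and 0.37, and Lyar, Golga4, Clic5, Gstk1, Gpx3 and Tmem143 by 0.27 to 0.35. Gene models made up 6 of the 49 called features.

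No gene of the fuel lists was called. Of 26 fatty-acid oxidation genes tested, 25 had values above 0 (median 0.15), 6 did not overlap between the ages, all of them higher (12% of all features), and 0 were called. Acadvl, the first dehydrogenase for long chains, was at 459, 521 and 471 FPKM at day 77 and at 422, 424 and 443 FPKM at day 45 (adjusted p = 0.28), and Cpt1b, the gate of mitochondrial uptake, overlapped between the ages (252.5 to 282 and 249.7 to 263 FPKM). Of 14 fasting and PPAR-alpha genes 12 had values above 0 (median 0.29) with 0 called. Pdk4, the kinase that shuts glucose out of mitochondria, was at 119.7, 278 and 161 FPKM and at 51.6, 102.8 and 132 FPKM, with overlap. The 38 tested nuclear genes of the respiratory chain and citric acid cycle had a median of 0.07, 0 calls and 30 values above 0, and with quantile normalization 19 were below 0. Over all features 57.5% were above 0.

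The list with the highest median was that of red blood cells. All 5 tested erythroid genes had higher values in each day-77 than in each day-45 library, beside 12% of all features, and 0 were called. Hba-a1, an alpha globin, was at 1987, 1443 and 1095 FPKM at day 77 and at 539.8, 816 and 472 FPKM at day 45 (log2 difference 1.30, adjusted p = 0.224; reads may be shared with its near-identical copy), and Alas2, the heme synthesis enzyme of red cells, at 21.1, 14.5 and 13.6 FPKM and at 4.90, 9.12 and 5.39 FPKM (1.24, adjusted p = 0.278). Slc4a1, the anion exchanger of red cells, stayed below 0.5 FPKM in the 6 libraries. CnATg hearts gave a median of 1.46 for the same 5 genes, with 0 called.

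**Figure D5:**
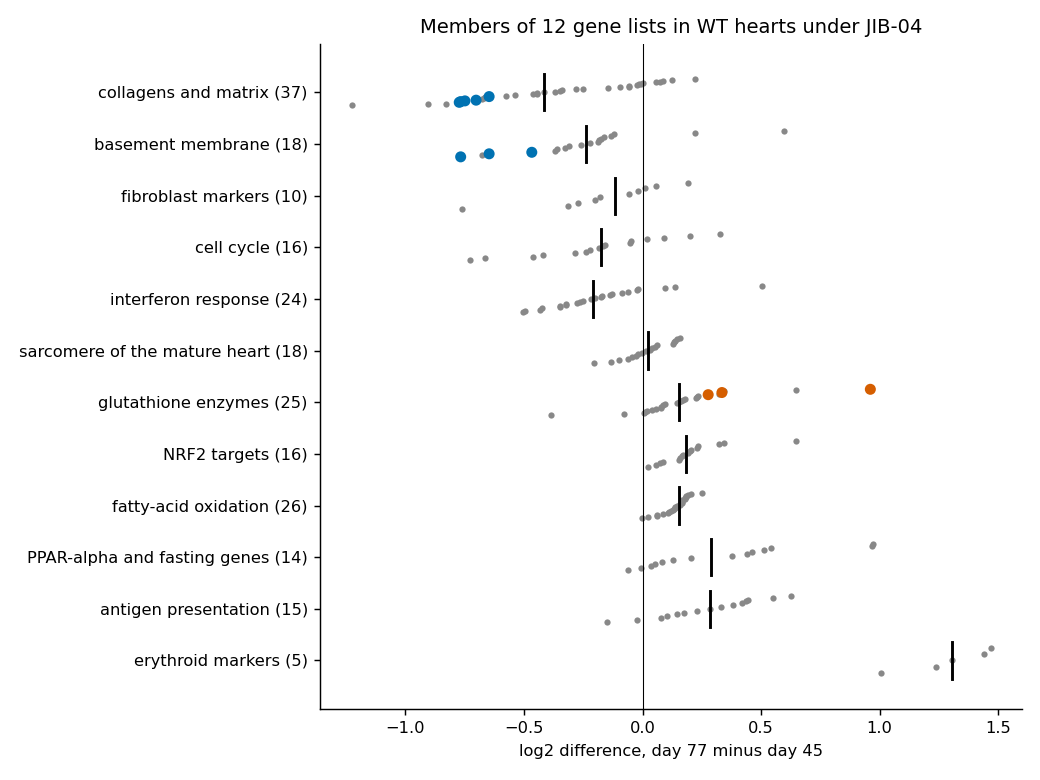
Log2 differences (day 77 minus day 45) of the tested members of 12 gene lists, one point per gene with the number tested in brackets, a bar at the list median and coloured points for called genes (blue lower, orange higher). Collagen and matrix genes have a median of -0.42 with 5 called, sarcomere genes one of 0.02, and the erythroid genes one of 1.30 with 0 called.

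Genes of other cells and signals gave 0 calls. Macrophage markers (11 tested) had a median of -0.04, brown-fat markers (3 tested) 0.19 and growth-related imprinted genes (11 tested) -0.14 (-0.05 without day-45 replicate 2). Within the last, Mest was at 2.43, 1.48 and 3.56 FPKM at day 77 and at 4.40, 6.69 and 3.71 FPKM at day 45 (adjusted p = 0.0882), and the noncoding H19 at 10.96, 7.72 and 7.02 FPKM and at 6.14, 6.78 and 3.47 FPKM (adjusted p = 0.395). The Jumonji demethylase genes themselves (18 tested) had a median of 0.02. The medians of endothelial, sarcomere, heat-shock and Jumonji genes, all near 0, changed sign under median-ratio scaling or quantile normalization. No T-cell, thymocyte or lung marker reached the level needed for the test.

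The same ages were compared in CnATg hearts under JIB-04. There limma called 1 feature (0.00789%), Nid1, at -0.53 (log2, adjusted p = 0.02), beside -0.31 in WT hearts, and 0 rose. For the difference between the 2 age effects limma called 1 feature (0.00789%). The 5 called collagen and matrix genes had CnATg values of -0.35 (Sparc), -0.43 (Col4a1), -0.38 (Col4a2), -0.42 (Col6a1) and -0.49 (Col5a1), none past the test, and their difference from WT was not called (adjusted p = 0.731 to 0.888). The CnATg median of the 37 matrix genes was -0.28, beside -0.008 over all features, with 26 below 0. Aspn had 0.18 in CnATg hearts, where it was at 54.5 to 72.6 FPKM. Of the 17 features that fell in WT hearts 16 had a value below 0 in CnATg hearts, and of the 32 that rose 24 had one above 0. The shares of all features above and below 0 in CnATg hearts were not counted, and only their median of -0.008 stands beside these counts. Whether these counts, or the 26 of the 37 matrix genes, exceed the share over all features was not tested. Across the 12680 features, which are not independent replicates, the WT and CnATg age differences, from separate libraries, correlated with Pearson's r of 0.390 and Spearman's rho of 0.30. Day-77 and day-45 libraries carry separate ranges of animal numbers in their deposited names in both genotypes, so cohort and age cannot be told apart.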

How the data were processed

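RNA-seq was done on 23 mouse hearts in 7 groups. The labels' protocols give Trizol extraction and mRNA libraries that keep no strand. The submitters' processing notes name STAR 2.7.1a, Picard, GATK 4.1.2, Cufflinks 2.2.1 and GRCm38. The authors deposited log2 FPKM for 43154 features per library, per the file headers; values with exact zeros and none below 0 were read as log2(FPKM + 1). The offset is not given in the sources used here. Counts and absolute depth are unknown, so the libraries' spread sets the precision. A relative depth was estimated from values of low genes (loci of 900 to 4000 bases) in pairs of libraries. Positions are from GENCODE M21 on GRCm38, 1-based.

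Features with at least 1 FPKM in at least 3 of the 6 libraries were tested, without mt-Atp6, mt-Atp8 and mt-Co3, listed at 0 in 13 of the 23 libraries. limma 3.58.1 in R 4.3.3 fitted 7 group means over all libraries (16 residual degrees of freedom, two-sided moderated test with a trend on mean level, p-values adjusted over 12680 features after Benjamini-Hochberg, threshold 0.05), and was tested on simulated data. Labels do not say that each library came from its own mouse, so p-values measure the spread between these libraries. The numbers in the deposited library names, read as animal numbers, lie lower in all 11 day-77 libraries than in all 12 day-45 libraries.

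Named genes were up to 12 each way (some that the rule names are not reported here), 2 FPKM or more in the higher group, without overlap between the ages and without gene models. The members and the 42 lists were chosen with earlier results of these data known, and 3 lists were added after values were seen. Other fits left out libraries, changed the filter, pseudocount or scaling, or added sex or the replicate number.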

Additional observations from a re-analysis of the deposited data

How the results depend on the processing

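The direction of all 22 named genes was the same in every alternative that tested them (up to 18 per gene). This was largely fixed in advance. Without overlap between the ages, leaving out 1 library or changing the pseudocount cannot turn a difference round. The smaller fits and those without a filter, with the replicate block or without a trend return the same difference. Only the scalings and the sex covariate could have changed a direction. The calls were not stable. The number of alternatives that kept the call ranged from 3 of 18 (Art4 and Mgst1) to 14 of 18 (Gbp6). All 22 lost it in the fit of the 6 libraries, in that of the 9 WT libraries and without day-77 replicate 2. Higher and lower calls in WT hearts (32 and 17) became 0 and 0 in fits of the 6 libraries or of the 9 WT libraries (1508 with an unadjusted p under 0.05 in the latter), 21 and 11 without a filter on low values, 13 and 27 with median-ratio scaling, 48 and 52 with quantile normalization, 6 and 1 without mitochondrial and hemoglobin genes, and 4 and 10 when structural RNA was left out too. Leaving out 1 WT library gave 0 to 29 higher and 0 to 33 lower calls; leaving out 1 CnATg library, chosen after seeing the data, gave 17 to 42 and 9 to 23, the lowest without day-45 replicate 1. Matrix genes called lower (5) became 0 in both smaller fits, 1 without the filter, 8 with quantile normalization, 0 and 2 in the rescaled fits and 0 to 6 with a WT library left out; their median stayed between -0.49 and -0.28. The 1 CnATg call became 3 without the filter, 0 in both rescaled fits, 6 without an intensity trend, 1 to 3 without 1 WT library and 0 to 7 without 1 CnATg library. The 1 call for the difference between the age effects became 0 with log2(FPKM + 0.1) and 0 to 1 with a library left out. The cause of these changes was not tested.

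With the replicate block, 5 features were higher and 4 lower in WT hearts, 0 matrix genes and 4 CnATg features were called. Deviations of same-numbered WT libraries correlated at 0.038, 0.080 and -0.083, so the libraries share only a number. The median half-width of the 95% interval of a difference is 0.22 (log2), so for a typical feature a difference well below that could not be told from 0, while features with a small spread passed the test below it.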
